A study of Mus musculus with 6 samples.

Results

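Genes of the major histocompatibility complex (MHC) of the mouse, here the rows of a liver gene expression table whose name starts with H2-, were described across control livers and livers with an endothelial deletion of the kinase TAK1. They were chosen by name alone, and 43 of the 24318 rows of the table carried such a name. Of these, 32 named class I chains or class I pseudogenes and 10 named class II chains. The remaining row, H2-Ke6, names a hydroxysteroid dehydrogenase gene that lies in the same stretch of the genome and is no MHC chain. In the GENCODE annotation of GRCm38, which is not the authors' build, 39 of the 43 names were found, all on chromosome 17 between bases 33974659 and 37483552. The 10 class II rows lay together between bases 34092340 and 34344645.

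Class I molecules pair a heavy chain with beta-2 microglobulin (B2m) and show peptides from inside the cell to CD8 T cells, and nearly all nucleated cells make them. Class II molecules pair an alpha and a beta chain, show peptides from ingested proteins to CD4 T cells, and are made mainly by dendritic cells, B cells and macrophages. In the mouse, H2-K and H2-D encode the classical class I heavy chains, the H2-Q, H2-T and H2-M genes encode nonclassical ones, and H2-A and H2-E encode the classical class II molecules. In liver, hepatocytes are known for making H2-Q10, a class I chain that is secreted.

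All 6 liver libraries came from mice with the C57BL/6 background and the genotype VEcadCreERT2/TAK1flox/flox, that is, loxP-flanked alleles of Map3k7, the gene of TAK1, and a tamoxifen-inducible Cre recombinase under the promoter of VE-cadherin, an endothelial gene. The 3 control libraries came from untreated mice and the 3 knockout libraries from mice treated with tamoxifen, and whether each came from a mouse of its own was not given, so deletion and tamoxifen cannot be told apart. Whole liver RNA was sequenced, and values are FPKM, fragment counts scaled by the length of the transcript and the size of the library. Ages, times after tamoxifen and read totals were not given in the sources used here, so depth is unknown and no counting interval can be given.

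Map3k7 itself measured 8.50, 9.02 and 9.14 FPKM in the controls, against 9.28, 9.31 and 7.35 FPKM in the knockouts, which overlap. Whole liver holds Map3k7 transcripts of other cells and transcripts without the loxP-flanked part can still be counted, so these values do not check the labels. Hepatocyte markers such as Apoa1 and Ttr summed to 14440 to 20580 FPKM over all 6 libraries, so the labelled tissue was present. Over the whole table, 1669 of 11842 tested genes were called higher after knockout and 1534 were called lower. These numbers became 1356 and 2081 once the libraries were rescaled to equal totals, a rescaling that put the median change over all tested genes at -0.11 on the log2 scale. The groups did not overlap for 43.5% of the genes tested. Some genes that every cell uses were listed at or near 0, such as Eno1 in 5 of 6 libraries, so a value of 0 can be a failed estimate.

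Class II genes rose in the knockout livers, the classical chains about 3-fold. Genes with an adjusted p under 0.05 (limma, Benjamini-Hochberg) are said to be called. Log2 fold changes compare knockout with control, are given with a standard error, and were computed on log2(FPKM + 0.5), which makes changes of low genes look smaller. Of the 10 class II rows, 8 had a mean of at least 0.5 FPKM and were tested, and all 8 were called higher, against 14.1% called higher among all genes tested. H2-Aa, H2-Ab1, H2-Eb1, H2-DMa and H2-DMb1 reached that mean in both groups. H2-DMb2, H2-Oa and H2-Ob reached it through the knockout livers alone, so for them passing the filter already required a difference. Every knockout library lay above every control library for each of the 8, as it did for 22.4% of all genes tested. The median log2 fold change of the 8 rows was 1.63, and that of all genes tested was -0.0007.

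The promoters of class II genes are known for a shared module of X and Y boxes, on which the RFX and NF-Y factors assemble and recruit the coactivator encoded by Ciita. Because these genes moved together, the stretch upstream of 6 of them is shown, from RefSeq on GRCm38.p6, 5′ to 3′ along the gene. Capitals mark the Y box core GATTGG and, where it was found, the X-like run AACNNATGNTG, whose letters were chosen after these windows were seen.
H2-Aa (chr17:34287861-34287926, minus strand): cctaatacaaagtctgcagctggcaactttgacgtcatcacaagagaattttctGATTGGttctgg
H2-Eb1 (chr17:34305753-34305818, plus strand): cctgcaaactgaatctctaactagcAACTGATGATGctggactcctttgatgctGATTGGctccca
H2-DMb1 (chr17:34153075-34153140, plus strand): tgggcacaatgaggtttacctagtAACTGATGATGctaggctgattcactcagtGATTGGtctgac
H2-DMb2 (chr17:34145104-34145169, plus strand): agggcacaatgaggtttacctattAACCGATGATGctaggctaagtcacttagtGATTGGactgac
H2-Ob (chr17:34238793-34238858, plus strand): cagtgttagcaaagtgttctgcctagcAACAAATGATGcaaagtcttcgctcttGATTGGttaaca
H2-Oa (chr17:34092281-34092346, plus strand): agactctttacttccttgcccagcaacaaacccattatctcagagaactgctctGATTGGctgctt

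In the 4 windows with both runs, the first base of the X-like run lay 27 to 30 bases before the first base of GATTGG. RefSeq windows of 250 bases before to 50 after a start were held for 31 of the 43 names. GATTGG was present on either strand, in at least 1 window of the gene, in 8 of 8 class II genes and in 16 of 22 class I genes that had a window, and in 16.1% of all 32851 windows. The X-like run was present in 5 of the 8 class II genes and 0 of the 22 class I genes, and in 0.566% of all windows. Its letters were chosen after class II windows were seen, so matches in those windows were fixed in advance. The class II count of this run therefore cannot be set against class I genes or all windows, and a difference was not tested. All these counts are matches of letters, and binding was not measured here.

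H2-Aa encodes the alpha chain of the classical class II molecule of this strain. It measured 56.4, 45.4 and 50.9 FPKM in the controls, against 156, 168 and 138 FPKM in the knockouts. The lowest knockout library was thus more than 2 times as high as the highest control, and the log2 fold change was 1.59 ± 0.14 (limma adjusted p = 1.43e-04). Its beta chain gene H2-Ab1 measured 39.6, 41.1 and 38.6 FPKM in the controls, against 137, 139 and 134 FPKM in the knockouts. The spread within each group of H2-Ab1 was small beside the gap between them, and the log2 fold change was 1.77 ± 0.12 (limma adjusted p = 3.17e-05). H2-Eb1 encodes the beta chain of the second classical molecule and measured 27.3, 21.9 and 24.4 FPKM in the controls, against 79.6, 75.4 and 83.9 FPKM in the knockouts. Its log2 fold change was 1.68 ± 0.14 (limma adjusted p = 9.01e-05). The fold of the group means was 3.02 for H2-Aa, 3.44 for H2-Ab1 and 3.25 for H2-Eb1, and their 95% intervals on the log2 scale, 1.27 to 1.90, 1.50 to 2.04 and 1.38 to 1.99, overlap. H2-Ea-ps, the pseudogene left where the matching alpha chain would be, was at 0 in all 6 libraries. H2-Eb2 measured at most 0.142 FPKM in any library and was not tested.

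The chains kept their order of level in every library, with H2-Aa above H2-Ab1 and H2-Ab1 above H2-Eb1. The level of H2-Ab1 relative to H2-Aa was 0.703, 0.906 and 0.758 in control and 0.883, 0.828 and 0.973 in knockout libraries, so these ratios overlap between the groups. The level of H2-Eb1 relative to H2-Aa was 0.484, 0.482 and 0.480 in control libraries, which lay close together. In knockout libraries it was 0.512, 0.450 and 0.610, on both sides of the control values.

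**Figure D1:**
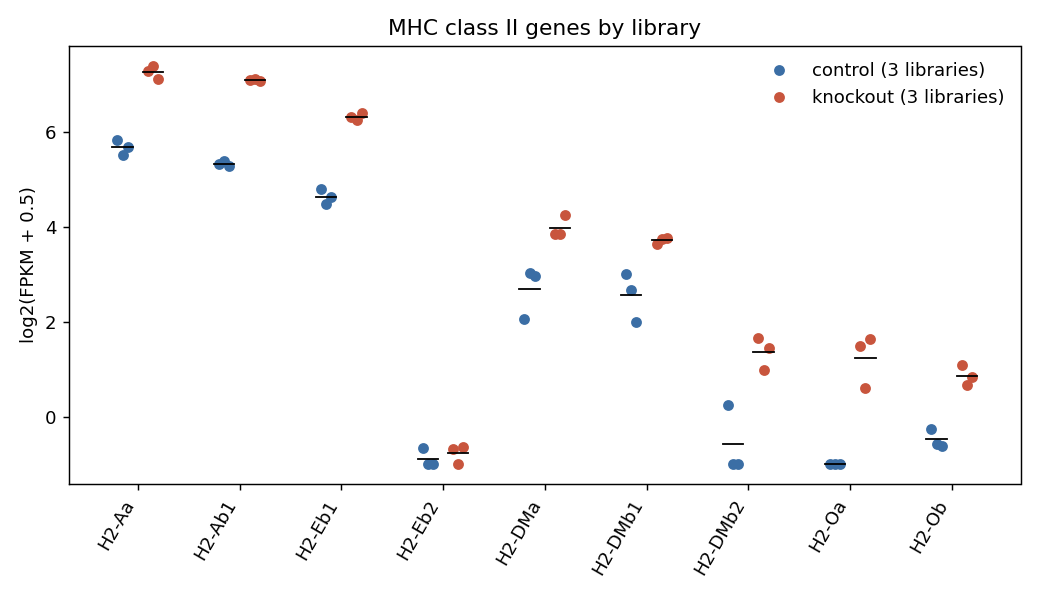
Levels of the 9 class II genes that were above 0 in some library, as log2(FPKM + 0.5) on the vertical axis. Points are libraries, 3 control and 3 knockout, and bars are group means; all knockout points lie above all control points for every gene but H2-Eb2, which was not tested.

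H2-DM and H2-DO act inside the cell on the loading of peptide onto class II molecules. H2-DMa encodes the alpha chain of H2-DM, which exchanges peptides, and measured 3.68, 7.65 and 7.33 FPKM in the controls, against 13.9, 13.9 and 18.4 FPKM in the knockouts. It was called higher with a log2 fold change of 1.29 ± 0.27 (limma adjusted p = 0.0068). H2-DMb1, a beta chain gene of H2-DM, measured 7.57, 5.90 and 3.50 FPKM in the controls, against 12.01, 12.95 and 13.2 FPKM in the knockouts. Its controls were spread widely but stayed below all knockout values, and the log2 fold change was 1.16 ± 0.25 (limma adjusted p = 0.00813). The second beta chain gene, H2-DMb2, was low throughout, at 0.687, 0 and 0 FPKM in the controls, against 2.66, 1.47 and 2.24 FPKM in the knockouts (log2 fold change 1.95 ± 0.40, limma adjusted p = 0.0068). Of the stretches of 50 bases in the GENCODE transcript of H2-DMb1, 27.2% also occur in H2-DMb2, so reads can be shared between these genes.

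H2-Oa and H2-Ob encode the chains of H2-DO, a brake on H2-DM that is known from B cells and thymic epithelium. H2-Oa was listed at 0 in all 3 control libraries and measured 2.31, 1.03 and 2.61 FPKM in the knockouts, so no fold is given (limma adjusted p = 0.00186). H2-Ob measured 0.337, 0.175 and 0.155 FPKM in the controls, against 1.61, 1.08 and 1.28 FPKM in the knockouts (log2 fold change 1.33 ± 0.29, limma adjusted p = 0.00935). Both were the lowest of the tested class II genes by mean level in knockout livers. No class II call was lost under any alternative in which the gene was tested, which was 17 alternatives for each gene but H2-Oa and H2-Ob, tested in 16.

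The genes that control and serve the class II pathway rose in part. Of 14 such genes, all tested, 6 were called higher and 0 lower, against 14.1% and 13% of all genes tested, with a median log2 fold change of 0.78. Ciita, the class II transactivator, measured 0.168, 0.349 and 0.368 FPKM in the controls, against 2.17, 0.988 and 1.55 FPKM in the knockouts (log2 fold change 1.35 ± 0.32, limma adjusted p = 0.0129). Ciita passed the filter through the knockout livers alone, and its call was lost without knockout 1 (log2 fold change 0.97, limma adjusted p = 0.0527). The invariant chain Cd74, which escorts new class II molecules and fills their groove, measured 165, 137 and 148 FPKM in the controls, against 370.5, 414 and 428 FPKM in the knockouts. Its log2 fold change was 1.43 ± 0.14 (limma adjusted p = 1.98e-04), and all knockout values exceeded all control values.

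Some of the enzymes that trim the invariant chain and the antigen rose as well. Cathepsin S (Ctss), which cleaves the invariant chain, rose by 1.67 ± 0.18 on the log2 scale, from 61.6 ± 14.7 to 195 ± 24.9 FPKM (SD, n = 3; limma adjusted p = 3.71e-04). The lysosomal thiol reductase Ifi30 rose by 1.39 ± 0.16 on the log2 scale, from 46.7 ± 8.62 to 122 ± 13.1 FPKM (limma adjusted p = 4.73e-04). Lgmn, the asparaginyl endopeptidase legumain, and Nfya, a subunit of the Y box factor NF-Y, were also called higher, by 1.23 ± 0.22 and 0.86 ± 0.27. Nfya lost its call without control 1, control 2, knockout 1 or knockout 3, and also without a filter on low values and with libraries rescaled to equal totals. Not called were cathepsins L and B (Ctsl, Ctsb), Creb1, Nfyb, Nfyc and the 3 genes of the X box factor RFX, which were Rfx5, Rfxap and Rfxank. Of these, Nfyc (0.91 ± 0.30) had the largest fold change and missed the threshold with a limma adjusted p = 0.0501. The level of H2-Aa relative to Cd74 was 0.342, 0.331 and 0.344 in control and 0.420, 0.405 and 0.321 in knockout libraries, so the groups overlap. The difference of their log2 ratio was 0.16 (exact two-sided permutation p = 0.4, and 0.4 adjusted over the 3 single values tested this way; 0.1 is the smallest that 3 against 3 libraries can give).

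Markers of the cells that carry class II moved with these genes. In whole liver, fewer cells of a type and less RNA per cell cannot be told apart, nor can more cells and more RNA per cell. Of 10 B cell markers, 8 were tested and 7 were called higher, 4 of which passed the filter through the knockout livers alone, with a summed level of 3.60 to 8.80 FPKM in the controls, against 21.9 to 37.1 FPKM in the knockouts; Pax5 and Cr2 were at 0 in all controls. Of 12 dendritic cell markers, 8 were tested and 3 were called higher, 2 of which passed through the knockout livers alone, with sums of 7.76 to 12.04 FPKM and 15.7 to 20.8 FPKM; Cd209a was at 0 in all controls. Of 10 monocyte and macrophage markers, 9 were called higher, 2 of which passed through the knockout livers alone, with sums of 98.7 to 173 FPKM and 280.3 to 314 FPKM. Of 8 Kupffer cell markers, 3 were called higher and 0 lower, with sums of 437 to 896 FPKM and 918 to 1108 FPKM. Passing the filter through the knockout livers alone already required a difference, and 14.1% of all genes tested were called higher. The class II rows themselves summed to 122 to 136 FPKM in the controls, against 393 to 412.5 FPKM in the knockouts. The part of these cell types in the class II result was not tested.

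Control 3 was the highest control in the B cell, dendritic cell, monocyte and macrophage and Kupffer cell sums, but not in the class II sum. Its Kupffer cell sum was 896 FPKM, against 437 and 498 FPKM in controls 1 and 2, and its monocyte and macrophage sum was 173 FPKM, against 101.3 and 98.7 FPKM. Its class II sum was 125 FPKM, between 136 FPKM in control 1 and 122 FPKM in control 2. Without control 3, the class II genes called higher still numbered 8. On the first principal component of all genes, control 3 lay at -34.1, nearer the knockout libraries than the other controls at -49.9 and -50.7.

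**Figure D2:**
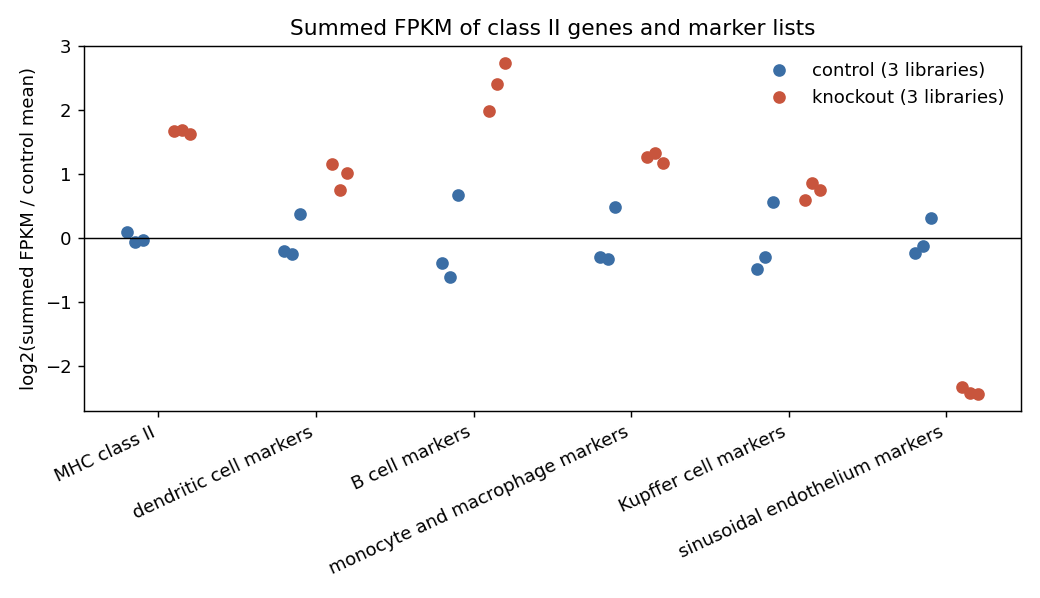
Summed FPKM of the class II rows and of 5 marker lists per library, as the log2 ratio to the mean of the 3 control libraries on the vertical axis. Knockout points lie above all control points for class II and the 4 leukocyte lists and below them for sinusoidal endothelium, while control 3 is the highest control for each marker list but not for class II.

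Other cell types were measured the same way, and are set against the 14.1% of all genes tested that were called higher and the 13% called lower. Of 8 sinusoidal endothelium markers, 7 were called lower and 0 higher, 1 of the 7 having passed the filter through the control livers alone, and their sum went from 146 to 214.5 FPKM in control to 31.7 to 34.3 FPKM in the knockouts. All 9 neutrophil markers tested were called higher, 4 of which passed through the knockout livers alone, with sums of 36.2 to 72.9 FPKM and 1705 to 1793 FPKM. Of 7 T and NK cell markers tested, 1, Cd3d, was called higher, a share near the background. Hepatocyte markers numbered 1 higher (Fgb) and 2 lower (Ttr and Hnf4a) of 8, and cholangiocyte markers 1 higher (Sox9, which passed the filter through the knockout livers alone) and 1 lower (Krt19) of 5.

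Class I genes that passed the test moved in both directions, and H2-Q10 had the largest fall in level. Of the 32 class I rows, 18 were tested, of which 1 was called higher and 4 lower. Over all genes tested, 27.0% were called, 14.1% higher and 13% lower, so 5 calls among 18 class I rows were close to that background. H2-K2 and H2-Q1, both called lower, reached the filter through the control livers alone. The median log2 fold change of the 18 rows was -0.09. Rows at 0 in all 6 libraries numbered 12: H2-L, H2-T3 and 10 H2-M genes. H2-Q2 and H2-M2 measured at most 0.493 and 0.674 FPKM in any library and were below the filter.

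Class I promoters are known for an upstream enhancer with a site for NF-kappaB next to a site for interferon regulatory factors. This stretch is shown for 5 genes, because the secreted H2-Q10 carries other letters in it than the classical genes. Whether these letters bear on the level of any gene was not tested. Capitals mark the 11 bases at the position of the kappaB site, GGGGATTCCCC in H2-K1, H2-D1 and H2-Q6, or the 10-base run GGGGATTCCC in H2-Q7, and then the run TTTCNNTTC.
H2-K1 (chr17:34000424-34000468, minus strand): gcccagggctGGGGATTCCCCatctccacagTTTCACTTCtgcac
H2-D1 (chr17:35262913-35262957, plus strand): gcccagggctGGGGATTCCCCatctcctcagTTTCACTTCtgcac
H2-Q6 (chr17:35424667-35424711, plus strand): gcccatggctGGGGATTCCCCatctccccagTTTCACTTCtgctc
H2-Q7 (chr17:35439011-35439055, plus strand): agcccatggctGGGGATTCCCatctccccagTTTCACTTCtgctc
H2-Q10 (chr17:35469903-35469947, plus strand): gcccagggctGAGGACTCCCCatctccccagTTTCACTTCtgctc

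Counted from 1 at the first capital, H2-Q10 differs from the H2-K1 run by G2A and T6C. The letters GGGGATTCCCC were read from the H2-K1 window, so the match in H2-K1 was fixed in advance. This run was present, on either strand, in 3 of the 22 class I genes with a window, 0 of the 8 class II genes and 0.0304% of all windows. The contained 10-base run GGGGATTCCC was present in 4 of the 22 class I genes and 0.107% of windows, and TTTCNNTTC in 8 of the 22 class I genes, 0 of the 8 class II genes and 7.52% of windows. These matches describe letters, and no binding was measured.

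The classical heavy chain genes H2-K1 and H2-D1 did not pass the test. H2-K1 measured 981, 962 and 798 FPKM in the controls, against 697, 795 and 841 FPKM in the knockouts, which overlap, with a log2 fold change of -0.23 (95% interval -0.58 to 0.12, limma adjusted p = 0.31). H2-D1 measured 348, 349 and 341 FPKM in the controls, against 392, 553 and 470.5 FPKM in the knockouts. All knockout values of H2-D1 lay above its controls, yet its log2 fold change of 0.43 ± 0.15 missed the threshold with all libraries (limma adjusted p = 0.0672) and passed it without knockout 1 (0.56, limma adjusted p = 0.0390). Their sum was 1329, 1311 and 1139 FPKM in the controls, against 1089, 1348 and 1312 FPKM in the knockouts, which overlap. The ratio of H2-K1 to H2-D1 was 2.82, 2.75 and 2.34 in control and 1.78, 1.44 and 1.79 in knockout libraries, without overlap. H2-K2, a pseudogene beside H2-K1, was low, at 1.46, 1.52 and 0.676 FPKM in the controls, against 0.351, 0.391 and 0 FPKM in the knockouts (log2 fold change -1.21 ± 0.37, limma adjusted p = 0.0375). The call of H2-K2 was lost with a pseudocount of 0.1 (limma adjusted p = 0.0626) and without control 1, control 2, knockout 1 or knockout 3 (-1.32 to -0.94 on the log2 scale).

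H2-Q10 was the most abundant class I gene of the control livers and fell to 0.369 times its control level. It measured 1319.7, 1375 and 1044 FPKM in the controls, against 434, 267 and 679 FPKM in the knockouts. The 3 knockout libraries differed among themselves, but the highest of them stayed below the lowest control. The log2 fold change was -1.53 ± 0.30 (limma adjusted p = 0.00516). H2-Q10 stayed called under all 17 alternatives, with log2 fold changes of -1.86 to -1.19. It made up 44.3%, 46.4% and 42.8% of the summed class I FPKM in the controls, against 24.7%, 14.6% and 30.4% in knockout libraries. This difference of 21.3 percentage points separated the groups (exact two-sided permutation p = 0.1, the smallest possible, and 0.15 adjusted over 3 values). Summed over all class I rows, the level was 2979, 2965 and 2439 FPKM in the controls, against 1756, 1836 and 2237 FPKM in the knockouts, without overlap. Without H2-Q10 the sums were 1659, 1590 and 1395 FPKM and 1322, 1569 and 1558 FPKM, which overlap. Hepatocytes make H2-Q10, and the hepatocyte marker sum was 15340 to 20580 FPKM in the controls, against 14440 to 15760 FPKM in the knockouts; its part in the fall of H2-Q10 was not tested.

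**Figure D3:**
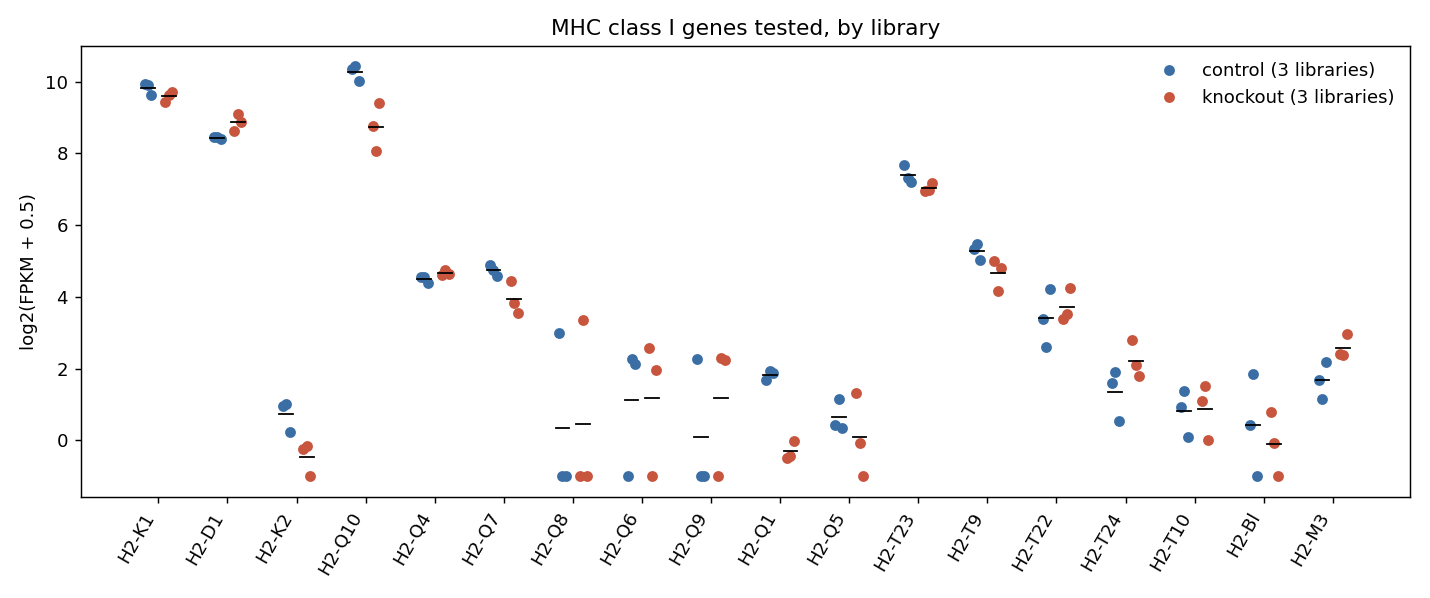
Levels of the 18 class I genes tested, as log2(FPKM + 0.5) on the vertical axis, with 3 control and 3 knockout libraries as points and group means as bars. H2-Q10 and H2-Q1 show the widest gaps between groups, and H2-Q6, H2-Q8 and H2-Q9 switch between values near 0 and several FPKM within both groups.

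Among the other H2-Q genes, H2-Q1 was low and H2-Q7 moderate, and both were called lower. H2-Q1 measured 2.73, 3.30 and 3.15 FPKM in the controls, against 0.218, 0.243 and 0.494 FPKM in the knockouts, a log2 fold change of -2.13 ± 0.26 (limma adjusted p = 5.94e-04) that stayed called under all 17 alternatives. Of the 50-base stretches of its GENCODE transcript, 22.9% also occur in another H2 gene, so reads of H2-Q1 can be shared. H2-Q7, a gene of the glycolipid-anchored Qa-2 antigen, measured 29.4, 26.5 and 23.4 FPKM in the controls, against 21.2, 13.7 and 11.1 FPKM in the knockouts. Its log2 fold change was -0.81 ± 0.23 (limma adjusted p = 0.0263), and the call was lost without a variance trend (0.0534) and without control 1, control 2, knockout 2 or knockout 3 (-0.80 to -0.61 on the log2 scale). H2-Q4 measured 23.1, 23.2 and 20.6 FPKM in the controls, against 23.9, 26.4 and 24.5 FPKM in the knockouts, with a log2 fold change of 0.16 (95% interval -0.14 to 0.46, limma adjusted p = 0.42). H2-Q5 measured 0.773 to 1.73 FPKM in the controls, against 0 to 2.01 FPKM in the knockouts and was not called.

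H2-Q6, H2-Q8 and H2-Q9, near copies of H2-Q7, could not be read singly. H2-Q8 measured 7.53, 0.00385 and 0.00397 FPKM in the controls, against 0.00374, 9.67 and 0.00403 FPKM in the knockouts. H2-Q9 was at or below 0.000402 FPKM in controls 2 and 3 and in knockout 1, and at 4.24 to 4.40 FPKM in the other libraries. H2-Q6 was at 0.000145 FPKM in control 1 and 0.000218 FPKM in knockout 2, the libraries in which H2-Q8 was high, and at 3.39 to 5.52 FPKM elsewhere. Of the 50-base stretches of the GENCODE transcripts, 31.5% of those of H2-Q7 and 27.0% of those of H2-Q6 also occur in another H2 gene. Their direction is therefore not given, and that of H2-Q6 turned with the scaling. Summed over H2-Q6 to H2-Q9, the level was 41.2, 30.8 and 27.3 FPKM in the controls, against 26.7, 27.8 and 18.8 FPKM in the knockouts. This sum was formed after the data were seen and overlaps between the groups, whereas H2-Q7 alone did not overlap.

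The H2-T genes did not pass the test. H2-T23, which encodes Qa-1, a chain that shows leader peptides of other class I molecules to NK cell receptors, measured 204, 159 and 148 FPKM in the controls, against 124, 126 and 144 FPKM in the knockouts. All its knockout values lay below its controls, as for 21.1% of all genes tested, with a log2 fold change of -0.36 ± 0.15 (limma adjusted p = 0.114). It was called lower with libraries rescaled to equal totals (-0.48, limma adjusted p = 0.0252). H2-T9 measured 39.7, 43.7 and 31.9 FPKM in the controls, against 31.4, 17.6 and 27.7 FPKM in the knockouts, with a log2 fold change of -0.61 ± 0.22 (limma adjusted p = 0.0722). It passed with equal totals (-0.73, limma adjusted p = 0.0229) and without knockout 1 (-0.77, limma adjusted p = 0.0476). H2-T22, a ligand of gamma delta T cell receptors with 44.6% of its 50-base stretches shared with another H2 gene, measured 5.63 to 18.1 FPKM in the controls, against 9.88 to 18.4 FPKM in the knockouts. Added after the data were seen, the sum of H2-T9 and H2-T22 was 49.7, 49.3 and 49.95 FPKM in the controls, against 41.3, 28.5 and 46.1 FPKM in the knockouts. The controls thus lay closer together in the sum than in either gene, and all knockout values lay below them. H2-T24 measured 0.966 to 3.26 and 2.95 to 6.42 FPKM, H2-T10 0.577 to 2.11 and 0.509 to 2.34 FPKM, and H2-Bl 0 to 3.09 and 0 to 1.23 FPKM in the controls, against knockout libraries, and the groups overlap for each.

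H2-M3, which presents formylated peptides of bacteria and mitochondria, was the class I gene called higher. It measured 2.69, 1.74 and 4.04 FPKM in the controls, against 4.84, 4.67 and 7.29 FPKM in the knockouts, without overlap. Its log2 fold change was 0.91 ± 0.29 (limma adjusted p = 0.0445). The call was lost without a filter on low values, with equal totals and without a variance trend (limma adjusted p of 0.0596 to 0.0779), and when any 1 library but control 3 was left out (0.66 to 1.02 on the log2 scale). H2-Ke6, the dehydrogenase gene, measured 64.9, 52.5 and 47.4 FPKM in the controls, against 31.8, 35.9 and 38.7 FPKM in the knockouts and was called lower (log2 fold change -0.62 ± 0.16, limma adjusted p = 0.0179). It lost its call without control 1, control 2 or knockout 1 (log2 fold changes of -0.72 to -0.49 over all leave-outs).

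**Figure D4:**
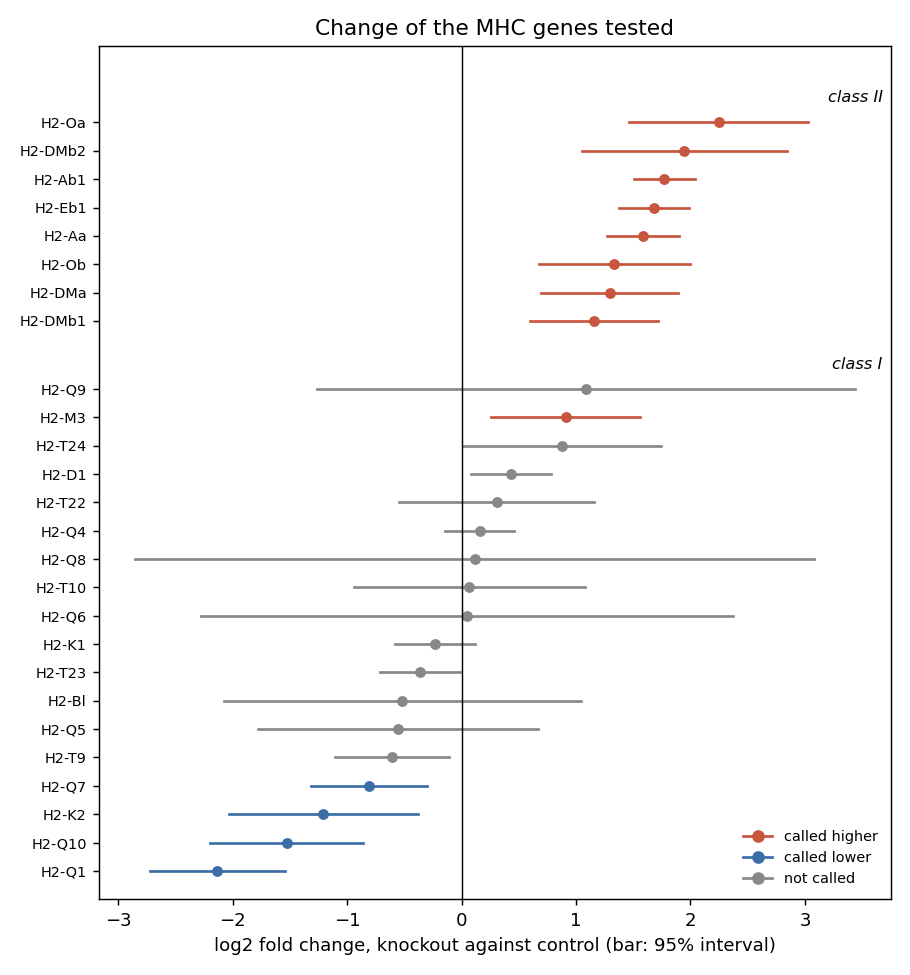
Log2 fold change of knockout against control on the log2(FPKM + 0.5) scale for the 8 class II and 18 class I genes tested, with 95% intervals as bars. All class II intervals lie above 0, while class I genes fall on both sides of 0 and those of H2-Q6, H2-Q8 and H2-Q9 span more than 4 log2 units.

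Genes of the machinery that loads class I molecules were called at about the background rate. Of 16 such genes, all tested, 0 were called higher and 3 lower, against 14.1% and 13% of all genes tested, with a median log2 fold change of -0.13. The 3 were Psmb9 and Psmb10, subunits of the immunoproteasome, and Psme2, a subunit of the proteasome activator PA28. Psmb9 measured 26.6, 27.0 and 18.5 FPKM in the controls, against 16.7, 14.2 and 13.7 FPKM in the knockouts (log2 fold change -0.66 ± 0.18, limma adjusted p = 0.0249). Psmb10 had a log2 fold change of -0.56 ± 0.16 (limma adjusted p = 0.0273), and Psme2 of -1.13 ± 0.33 (limma adjusted p = 0.0306). Each of the 3 lost its call without control 1, control 2 or knockout 2, among other libraries, Psmb9 and Psmb10 also without a variance trend, and Psme2 without a filter on low values. The third subunit of the immunoproteasome, Psmb8, had a log2 fold change of -0.03 (95% interval -0.39 to 0.33). The peptide transporter Tap1 had a log2 fold change of 0.59 (limma adjusted p = 0.0888), and Nlrc5, the class I transactivator, measured 0.572 to 1.68 FPKM in the controls, against 0.741 to 2.195 FPKM in the knockouts.

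B2m, the light chain that every class I heavy chain pairs with, measured 2341, 2164 and 2066 FPKM in the controls, against 1579, 1852 and 1902 FPKM in the knockouts. Its groups do not overlap, but the log2 fold change of -0.30 ± 0.16 was not called (limma adjusted p = 0.196); it passed with equal totals (-0.42, limma adjusted p = 0.0438). The summed class I rows, H2-Q10 included, relative to B2m were 1.27, 1.37 and 1.18 in control and 1.11, 0.992 and 1.18 in knockout libraries. The difference of their log2 ratio was -0.22 (exact two-sided permutation p = 0.1, the smallest possible, and 0.15 adjusted over 3 values). The knockout 3 ratio lay just below the control 3 ratio, so the groups were separated by a narrow margin. H2-Q10 made up 42.8% to 46.4% of this class I sum in the controls and 14.6% to 30.4% in the knockouts. Without H2-Q10 the class I sums were 1659, 1590 and 1395 FPKM in the controls, against 1322, 1569 and 1558 FPKM in the knockouts, which overlap. Relative to the B2m values above, these sums were higher in every knockout library than in any control. The lower ratio thus does not describe the other heavy chains, whose ratio to B2m went the other way and was not tested.

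Interferon gamma is known to raise both classes of MHC gene. Of 22 genes of its pathway and response, 20 were tested, of which 3 were called higher and 0 lower, close to the background of 14.1% higher, with a median log2 fold change of 0.06. The receptor chain gene Ifngr1 measured 13.1, 11.3 and 16.3 FPKM in the controls, against 42.7, 50.6 and 40.0 FPKM in the knockouts (log2 fold change 1.68 ± 0.17, limma adjusted p = 2.59e-04). Ifngr2, the other receptor chain, rose by 0.85 ± 0.18 on the log2 scale, and Irf8, a transcription factor of myeloid and B cells, by 1.61 ± 0.28. The response genes Irf1, Gbp2, Gbp3, Gbp5, Gbp6, Gbp7, Igtp, Irgm1, Irgm2, Iigp1, Cxcl9 and Cxcl10 were not called. Ifng itself was listed at 0.407, 0 and 0.377 FPKM in the controls, against at 0 in all knockout libraries, below the filter. A difference between the MHC genes and the response genes was not tested.

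**Figure D5:**
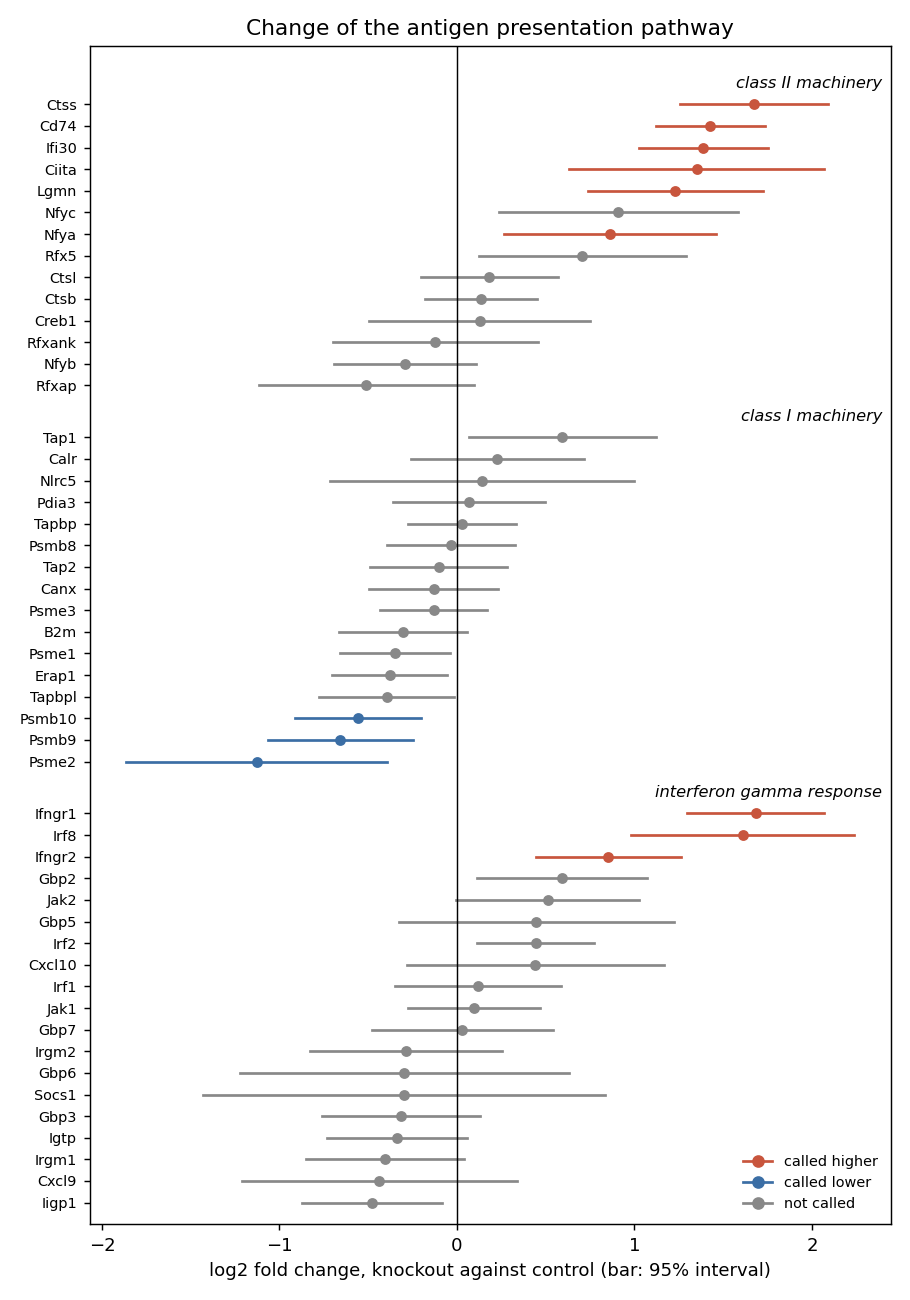
Log2 fold change of knockout against control, with 95% intervals as bars, for tested genes of class II machinery, class I machinery and the interferon gamma response, 1 of the last group not drawn. Called genes are coloured, and they are all higher in the class II and interferon gamma groups and all lower in the class I group.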

How the data were processed

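Whole liver RNA was measured in 6 libraries, 3 control and 3 knockout. Per the labels' protocols, the TruSeq Sample Prep v2 kit and paired-end sequencing on an Illumina HiSeq were used. The submitters' processing notes name Trimmomatic 0.33, TopHat2 2.1.0, Cuffdiff 2.2.1, Cuffnorm 2.2.1 and build mm9. The annotation and the handling of reads shared between paralogs are not given in the sources used here. Deposited values are FPKM per gene, normalized by the authors, and were used unchanged. Without counts, no count model was used and depth is unknown.

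Knockout and control were compared in limma 3.58.1 (R 4.3.3; lmFit, and eBayes with a variance trend, two-sided). The fit used log2(FPKM + 0.5) of the 11842 genes whose mean reached 0.5 FPKM. Alb, at 0 in all controls, was left out as a failed estimate. P-values were adjusted by Benjamini-Hochberg over all genes tested. The script was tested on simulated data. Single ratios and shares were tested by exact permutation. The labels call the replicates triplicates and say no more, so the p-values reflect the spread between these samples, which may be technical. Groups came from the treatment label.

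The members, gene lists, named genes and alternatives were chosen with earlier results of these data known. All H2- rows with a mean of at least 0.5 FPKM are named. Each pathway list names up to 4 called genes with the largest change, or its 2 most abundant genes if it had under 2 calls. Marker lists are given by counts and sums. All other names were chosen after their values were seen. Alternatives were pseudocounts of 0.1 and 1, no filter and a mean of at least 1 FPKM, 2 rescalings, 3 variance models, leaving out each library in turn, and a block for the replicate number. Promoters are from RefSeq and places and transcripts from GENCODE, both on GRCm38. Of the lists, 2 genes are not reported here singly. Figures were drawn with matplotlib 3.10.9.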

Additional observations from a re-analysis of the deposited data

How the results depend on the processing

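Class II calls were 8 higher and 0 lower under each alternative run but a mean of at least 1 FPKM, which removed H2-Oa and H2-Ob from the test and left 6 higher. Calls over the whole table were 3203 with all libraries and 2129 to 3141 with 1 library left out, the lowest without control 2. Class I genes called higher numbered 1, and 0 without a filter, with equal totals or without a variance trend, and 0 to 1 with 1 library left out. Class I genes called lower numbered 4, then 6 with equal totals and 2 to 4 with 1 library left out. Class I machinery genes called lower numbered 3, then 5 with equal totals, 1 without a variance trend and 0 to 3 with 1 library left out. Class II machinery genes called higher numbered 6, then 5 without a filter or with equal totals, and 4 to 6 with 1 library left out. They numbered 7 with a pseudocount of 1, with rescaling by a trimmed mean and under each of the 3 variance models.

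Some uncalled class I genes changed sign. With 1 library left out, log2 fold changes ran from -1.01 to 1.14 for H2-Q6 (0.05 with all libraries), from -1.33 to 1.44 for H2-Q8 (0.11), from -0.28 to 0.50 for H2-T10 (0.07), from -1.23 to 0.19 for H2-Bl (-0.52) and from -0.089 to 0.71 for H2-T22 (0.31). H2-Q6 was at -0.048 with equal totals, and with library weights H2-Q8 was at -0.33 and H2-T10 at -0.14. The cause was not tested. Keeping Alb in the table changed no member's call.

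A fit with the replicate number as a block gave 2960 calls over the whole table and left the class I (1 higher, 4 lower) and class II (8 higher) counts as they were. Deviations of libraries with the same number correlated at -0.01 to 0.00151, and those with different numbers at -0.0356 to 0.0375. No shared effect of the number was seen, but these values cannot tell whether the numbers denote pairs. Depth is unknown, which limits what can be said of genes near 0.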

Other observations

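Class I-like genes outside the H2 names share the fold of the heavy chains. Of 9 listed, 7 were tested, of which 1 was called higher and 1 lower, close to the 27.0% of all genes tested that were called. Cd1d1, which presents lipids to NKT cells, measured 167, 155 and 122 FPKM in the controls, against 70.5, 51.7 and 75.2 FPKM in the knockouts, without overlap (log2 fold change -1.17 ± 0.18, limma adjusted p = 0.00193). Procr, the endothelial protein C receptor, measured 0.948, 1.31 and 3.51 FPKM in the controls, against 7.89, 9.12 and 8.92 FPKM in the knockouts (log2 fold change 2.06 ± 0.34, limma adjusted p = 0.00258). Both stayed called under all 17 alternatives run. Cd1d2 and Ulbp1 were at 0 in all libraries, and Mr1, Fcgrt, Hfe, Azgp1 and Raet1e were not called.

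Genes of co-stimulation, the second signal that antigen-presenting cells give to T cells, were higher in part. Of 7 listed, 6 were tested and 4 were called higher, against 14.1% of all genes tested. Cd40, Cd80 and Cd83 passed the filter through the knockout livers alone, so for them passing already required a difference. Of the 4 called, 2 passed the filter in both groups. Cd83, a marker of mature dendritic cells, measured 1.07, 0.222 and 0 FPKM in the controls, against 3.07, 3.88 and 3.02 FPKM in the knockouts (log2 fold change 2.2 ± 0.40, limma adjusted p = 0.00389). Cd40, the receptor for the T cell ligand CD40L, measured 0, 0 and 0.258 FPKM in the controls, against 1.61, 0.632 and 1.51 FPKM in the knockouts (limma adjusted p = 0.0132). Cd274, which encodes the inhibitory ligand PD-L1, measured 0.485, 0.629 and 1.01 FPKM in the controls, against 2.55, 2.59 and 2.50 FPKM in the knockouts (log2 fold change 1.36 ± 0.26, limma adjusted p = 0.00465). Cd86 was called higher by 0.97 ± 0.29 and lost that call without control 1, control 2, knockout 1 or knockout 2. Cd80 and Icosl were not called. The B cell, dendritic cell and macrophage markers given above moved with these genes, and their part in the result was not tested.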
